A study of Homo sapiens with 4 samples.

Results

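The genes described here are 10 transcription regulators of T-lineage identity and quiescence: TCF7, LEF1, BCL11B, SATB1, IKZF1, BACH2, FOXO1, KLF2, ID2 and ID3. They were chosen by name, but with earlier results of these data known. Each name was found once, which makes 10 of the 50868 genes in the expression tables. RNA-seq had been done on Jurkat, an established human T-cell leukaemia line, labelled as WT T lymphoblasts. Cells were kept for 24 h in DMSO (the solvent control), 0.5 μM JQ1, DMSO + PHA or JQ1 + PHA, with PHA at 150 ng/ml. JQ1 blocks the acetyl-lysine pocket of the BET bromodomain proteins, and PHA is a plant lectin that binds and activates T cells. Jurkat is 1 transformed line that divides without stimulation, so it is a limited model of a resting T cell.

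Each condition had 1 library, with between 18620954 and 19685401 counts on genes. Mitochondrial genes took 6.27% to 7.07% of the counts, so no library stood apart by depth or by this share. There are no replicates, so no test between conditions was made, and how far a second culture would differ is unknown. Levels are given as read counts and as FPKM, the count scaled to gene length in kilobases and to the library total. Beside a fold, the text gives the log2 ratio of a gene's shares of the library totals and, in brackets, the 95% interval by the exact Clopper-Pearson method, which covers counting error only. Reads of a library are not independent molecules, so these intervals are too narrow even for that. Where the interval includes 0, a difference was not detectable at this depth. Past 2-fold means a ratio of at least 2 after 0.1 was added to both FPKM. All 12 T cell markers on a list that includes CD3D, CD3E and LCK were at 1 FPKM or more in every library. Their sums were 916 FPKM in DMSO, 694 in JQ1, 1235 in DMSO + PHA and 807 in JQ1 + PHA. The sum was thus lower with JQ1 in both settings, and its part in the results was not tested. TRBC1, the highest of these markers in every library, was not lower with JQ1. It had 330 FPKM in DMSO, 363 in JQ1, 374 in DMSO + PHA and 383 in JQ1 + PHA. Myeloid, epithelial and erythroid markers were all below 1 FPKM, and of 5 B cell markers CD79A alone reached 1 FPKM, with 7.48 in DMSO, 1.06 in JQ1, 6.33 in DMSO + PHA and 1.01 in JQ1 + PHA. CD79A was low in both JQ1 libraries, and its part in the results was not tested.

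TCF7 (the protein TCF-1) and LEF1 are HMG-box factors that bind DNA with β-catenin or with Groucho/TLE corepressors and start and keep the T-cell programme. BCL11B and IKZF1 (Ikaros) are zinc-finger factors, and SATB1 organises chromatin loops; all act in the commitment of thymocytes. BACH2, a leucine-zipper repressor, restrains effector genes. FOXO1, a forkhead factor held out of the nucleus by AKT, activates KLF2, and both are known for keeping resting T cells quiescent and for the genes of lymph node homing. ID2 and ID3 have no DNA-binding region: they pair with E proteins such as TCF3 and TCF12 and keep them from DNA.

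Sequence before the start site is shown for FOXO1, KLF2 and ID3, which are among the genes that were higher in JQ1 than in DMSO. All 10 genes matched RefSeq's promoter table, with 16 promoters of 35116. The 250 bases before the RefSeq start, on GRCh38.p14 and in the direction of transcription, are at chr13:40666642-40666891 (minus strand) for FOXO1, chr19:16324576-16324825 (plus strand) for KLF2 and chr1:23559502-23559751 (minus strand) for ID3. By the deposited coordinates, the ID3 window lies inside the ID3 span, which runs from 23557918 to 23559794. The last bases of the KLF2 window overlap the KLF2 span, which starts at 16324817. Capitals mark the TATA box letters TATAA, the CCAAT box letters CCAAT and the GC box letters GGGCGG on either strand.
FOXO1: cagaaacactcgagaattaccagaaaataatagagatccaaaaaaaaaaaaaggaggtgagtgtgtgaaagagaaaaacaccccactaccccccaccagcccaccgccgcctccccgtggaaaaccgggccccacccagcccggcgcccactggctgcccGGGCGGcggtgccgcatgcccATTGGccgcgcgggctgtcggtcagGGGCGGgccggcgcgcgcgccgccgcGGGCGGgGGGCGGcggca
KLF2: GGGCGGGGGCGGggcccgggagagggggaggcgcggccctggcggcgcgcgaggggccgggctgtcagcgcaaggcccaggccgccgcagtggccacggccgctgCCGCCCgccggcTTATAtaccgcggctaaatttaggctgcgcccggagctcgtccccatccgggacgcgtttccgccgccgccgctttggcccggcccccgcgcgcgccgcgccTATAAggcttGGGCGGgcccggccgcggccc
ID3: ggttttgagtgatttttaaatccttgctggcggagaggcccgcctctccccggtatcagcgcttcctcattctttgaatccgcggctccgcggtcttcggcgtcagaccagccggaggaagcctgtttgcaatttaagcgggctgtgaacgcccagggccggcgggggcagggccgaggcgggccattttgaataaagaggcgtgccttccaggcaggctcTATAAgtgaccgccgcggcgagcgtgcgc
None of these marked motifs overlaps another, although GC boxes lie directly side by side at the start of the KLF2 window. FOXO1 has 1 CCAAT box and 4 GC boxes. KLF2 has 2 TATA boxes and 4 GC boxes, and ID3 has 1 TATA box and neither of the others. The ID2 window, which lies inside the deposited ID2 span and is not printed, has 3 CCAAT boxes and 2 GC boxes. Of all promoters in the table, 18.9% hold the TATA box letters, 32.0% the CCAAT box and 42.6% the GC box, so the 4 genes share no single one of these motifs. The GC content was 67.2% in FOXO1, 80.0% in KLF2, 69.2% in ID2 and 62.0% in ID3, with 27, 41, 29 and 24 CpG dinucleotides, against medians of 58% and 11 over all promoters. This was not particular to genes higher with JQ1. LEF1, also higher, had 47.6% and 8, but its window (108166302 to 108166551) lies inside the LEF1 span, which runs to 108168956. Those LEF1 values are thus not of the sequence before the deposited start of the gene. BACH2, with no detectable JQ1 difference without PHA, had 73.6% and 40. The window with the most GC had 70.8% and 22 for TCF7, which was lower in JQ1, and 71.2% and 28 for IKZF1. Both of these windows also lie inside the deposited spans of their genes.

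All 10 genes were among the 11503 with a mean of at least 1 FPKM over the libraries. FOXO1, KLF2 and ID2 were below 1 FPKM in DMSO and passed through the other libraries. In DMSO the levels ran from LEF1 with 33.9 FPKM, BCL11B with 20.4, TCF7 with 17.6, ID3 with 17.0, IKZF1 with 13.2 and SATB1 with 9.21 down to BACH2 with 1.90, FOXO1 with 0.845, ID2 with 0.611 and KLF2 with 0.288. LEF1 and ID3 led in both JQ1 libraries. LEF1 went from rank 796 in DMSO to rank 234 in JQ1 among the 11503 genes, and ID3 from rank 1836 to rank 335. KLF2 was near the bottom in DMSO, at rank 11483, and at rank 9229 in JQ1.

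**Figure D1:**
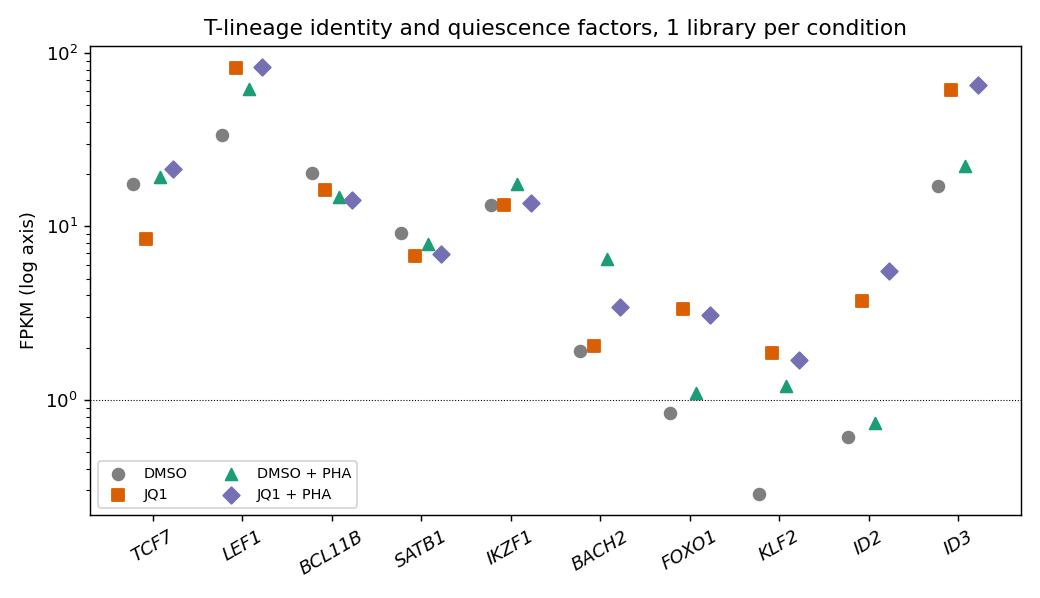
FPKM of the 10 genes in the 4 libraries, on a log axis, with 1 point per library and no error bar because each condition had 1 library. The dotted line is at 1 FPKM. ID2 and ID3 lie higher in both JQ1 libraries, TCF7 lies lowest in JQ1 at 8.47 FPKM and BACH2 highest in DMSO + PHA at 6.50 FPKM.

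The order between genes depends on the gene length that enters FPKM. The length implied by the files is 25785 bases for TCF7, against 10093 bases of exons in GENCODE release 44 and 3288 in the canonical transcript. For LEF1 the lengths were 14290, 5361 and 3575 bases. LEF1 was 1.93 times TCF7 in DMSO by FPKM but 0.983 times by counts per kilobase of canonical transcript, a scale chosen after the values were seen. In JQ1 the same ratio was 9.62 by FPKM and 4.91 per canonical kilobase. LEF1 was therefore above TCF7 in JQ1 on both scales, while in DMSO their order depended on the scale. Ratios of one gene between libraries do not depend on its length.

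In JQ1 against DMSO without PHA, ID2, KLF2, FOXO1, ID3 and LEF1 were past 2-fold higher and TCF7 was past 2-fold lower. That is 5 of 10 genes higher, where 5.22% of the 11503 genes were, and 1 of 10 lower, where 8.65% were. By counting interval, 5 genes lay above 0 and 3 below, against 36.9% and 38.7% of all genes. The median log2 ratio was 0.68 over the 10 genes and -0.01 over all genes. FOXO1, KLF2 and ID2 reach a mean of 1 FPKM only through libraries in which they are high, so the count is a description, and with a mean of at least 5 FPKM it was 2 higher. In bulk RNA, fewer cells of a type and less RNA per cell cannot be told apart.

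In JQ1 + PHA against DMSO + PHA, ID2, ID3 and FOXO1 were past 2-fold higher, which is 3 of 10 genes against 3.69% of all genes, and none was past 2-fold lower, against 8% of all genes. By counting interval 6 genes lay above 0 and 3 below, against 34.6% and 38.2% of all genes. The median was 0.29 over the 10 genes and -0.02 over all genes. Of the 3, ID2 and FOXO1 are low outside the JQ1 libraries, and with a mean of at least 5 FPKM the count was 1. KLF2 and LEF1 were higher with JQ1 here too, but by less than 2-fold. For KLF2 this rests on 82 against 61 counts, with an interval of 0.01 to 1.01 that comes close to 0.

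**Figure D2:**
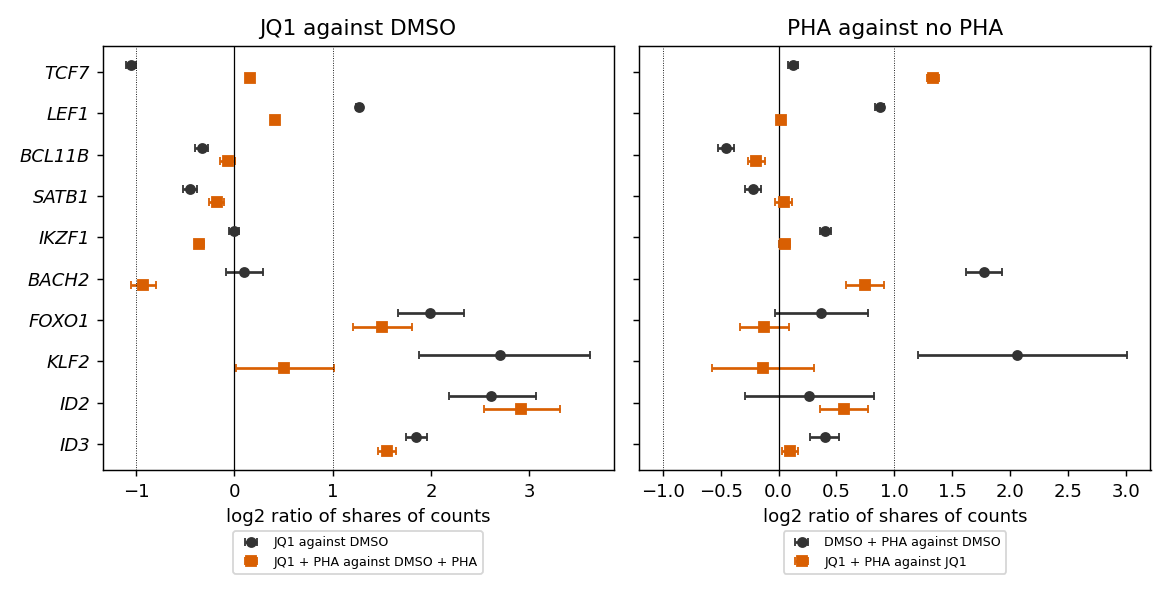
Log2 ratio of the shares of counts for the 10 genes, with 95% exact intervals for counting error. The left panel shows JQ1 against DMSO without PHA (circles) and with PHA (squares), the right panel PHA against no PHA in DMSO (circles) and in JQ1 (squares), and dotted lines mark 2-fold. ID2, ID3 and FOXO1 lie right of 2-fold in both JQ1 comparisons, and the TCF7 ratio is -1.05 without PHA and 0.16 with PHA.

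The HMG-box genes TCF7 and LEF1 differed in direction in JQ1 against DMSO, with TCF7 lower and LEF1 higher. TCF7 (ENSG00000081059; GRCh38 chromosome 5, 134114711 to 134151865, plus strand) had 8516 counts in DMSO, 4298 in JQ1, 9737 in DMSO + PHA and 10272 in JQ1 + PHA. These are 17.6, 8.47, 19.2 and 21.4 FPKM. The JQ1 library was the low one, and the other 3 lay close together. TCF7 was 2.07-fold lower in JQ1 than in DMSO, with a log2 ratio of -1.05 (interval -1.10 to -0.998), but 1.12-fold higher in JQ1 + PHA than in DMSO + PHA, with 0.16 (0.12 to 0.20). Within JQ1, PHA went with a 2.53-fold higher level, against 1.09-fold in DMSO. Only 48 of 11503 genes (0.417%) were at least 2-fold lower in the JQ1 library than in each of the other 3, and TCF7 was the 1 gene of the 10 among them. The low value thus rests on a single library, and the log2 ratio to DMSO was -0.97, short of 2-fold, with a pseudocount of 1.

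LEF1 (ENSG00000138795; chromosome 4, 108047545 to 108168956, minus strand) had 9102 counts in DMSO, 22923 in JQ1, 17438 in DMSO + PHA and 22009 in JQ1 + PHA, or 33.9, 81.5, 62.0 and 82.7 FPKM. DMSO was the lowest, and JQ1 and JQ1 + PHA differed by less than counting error, with a log2 ratio of 0.02 (-0.01 to 0.05). JQ1 went with a 2.41-fold higher level without PHA, a log2 ratio of 1.27 (1.23 to 1.30). With PHA the level was 1.33-fold higher, 0.42 (0.39 to 0.44). PHA alone went with a 1.83-fold higher level, 0.87 (0.84 to 0.91). JQ1 and PHA together thus gave about the level of JQ1 alone.

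BCL11B, SATB1 and IKZF1 differed least, with spans of 0.52, 0.44 and 0.41 on the log2(FPKM + 0.1) scale from the lowest to the highest library. BCL11B (ENSG00000127152; chromosome 14, 99169287 to 99271524, minus strand) had 4015 counts in DMSO, 3333 in JQ1, 3061 in DMSO + PHA and 2761 in JQ1 + PHA, or 20.4, 16.2, 14.8 and 14.1 FPKM. DMSO was highest, and the PHA libraries were lowest and did not differ detectably, with -0.07 (-0.14 to 0.01). BCL11B was 1.26-fold lower in JQ1 than in DMSO, with -0.33 (-0.40 to -0.27), and 1.37-fold lower in DMSO + PHA than in DMSO.

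SATB1 (ENSG00000182568; chromosome 3, 18345387 to 18445588, minus strand) had 3629 counts in DMSO, 2780 in JQ1, 3251 in DMSO + PHA and 2711 in JQ1 + PHA, or 9.21, 6.74, 7.88 and 6.95 FPKM. It was lower with JQ1 in both settings, 1.37-fold without PHA, with -0.45 (-0.52 to -0.38), and 1.13-fold with PHA, with -0.18 (-0.26 to -0.11). The SATB1 counts are uncertain, because the deposited span of TBC1D5, on the same strand, covers 99431 bases of it. TBC1D5 had 2814, 2208, 2511 and 2057 counts in the same order, and its count was 0.759 to 0.794 times that of SATB1 in every library. Which of these genes the shared reads belong to cannot be told from the counts.

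IKZF1 (ENSG00000185811; chromosome 7, 50304124 to 50405101, plus strand) had 6012 counts in DMSO, 6269 in JQ1, 8323 in DMSO + PHA and 6150 in JQ1 + PHA, or 13.2, 13.2, 17.5 and 13.7 FPKM. DMSO + PHA was the one high library. A difference between JQ1 and DMSO was not detectable, with an interval of -0.06 to 0.05. With PHA, JQ1 went with a 1.28-fold lower level, -0.36 (-0.40 to -0.31). PHA alone went with a 1.32-fold higher level, 0.40 (0.36 to 0.45).

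BACH2 was higher with PHA. BACH2 (ENSG00000112182; chromosome 6, 89926529 to 90296908, minus strand) had 425 counts in DMSO, 477 in JQ1, 1521 in DMSO + PHA and 757 in JQ1 + PHA, or 1.90, 2.04, 6.50 and 3.42 FPKM. Both PHA libraries were above both libraries without PHA. PHA went with a 3.42-fold higher level in DMSO, a log2 ratio of 1.77 (1.62 to 1.93), and 1.68-fold in JQ1, 0.75 (0.58 to 0.91). JQ1 went with a 1.90-fold lower level in the presence of PHA, -0.93 (-1.05 to -0.80). Without PHA a JQ1 difference was not detectable, with an interval of -0.09 to 0.29.

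FOXO1 and KLF2 were low in DMSO. FOXO1 (ENSG00000150907; chromosome 13, 40555667 to 40666597, minus strand) had 94 counts in DMSO, 391 in JQ1, 127 in DMSO + PHA and 340 in JQ1 + PHA, or 0.845, 3.36, 1.09 and 3.09 FPKM. Both JQ1 libraries lay above both DMSO libraries. JQ1 went with a 3.98-fold higher level without PHA, 1.99 (1.66 to 2.33), and 2.83-fold with PHA, 1.501 (1.20 to 1.81). The latter was 0.97 on the log2 scale, short of 2-fold, with a pseudocount of 1. A difference with PHA was not detectable in DMSO (-0.03 to 0.77) or in JQ1 (-0.34 to 0.09).

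KLF2 (ENSG00000127528; chromosome 19, 16324817 to 16327874, plus strand) had 14 counts in DMSO, 95 in JQ1, 61 in DMSO + PHA and 82 in JQ1 + PHA, or 0.288, 1.87, 1.20 and 1.71 FPKM. The DMSO library was the low one, and JQ1 and JQ1 + PHA did not differ detectably (-0.58 to 0.31). JQ1 went with a 6.49-fold higher level without PHA, with a wide interval of 1.88 to 3.62 around 2.70, and 1.42-fold with PHA, 0.51 (0.01 to 1.01). PHA alone went with a 4.16-fold higher level, 2.06 (1.20 to 3.01), which with a pseudocount of 1 was 0.77 and short of 2-fold. KLF2 was the 1 gene of the 10 that was at least 2-fold below all other libraries in DMSO, where 73 of the 11503 genes (0.635%) were. Its ratios to DMSO both rest on those 14 counts.

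ID2 and ID3 were higher with JQ1 with and without PHA. ID2 (ENSG00000115738; chromosome 2, 8678845 to 8684453, plus strand) had 51 counts in DMSO, 326 in JQ1, 64 in DMSO + PHA and 457 in JQ1 + PHA, or 0.611, 3.73, 0.733 and 5.53 FPKM. The lower of the JQ1 libraries was above both DMSO libraries. The level was 6.11-fold higher with JQ1 without PHA, a log2 ratio of 2.61 (2.18 to 3.07), and 7.55-fold higher with PHA, 2.92 (2.54 to 3.32). PHA went with a 1.48-fold higher level in JQ1, 0.57 (0.36 to 0.78), and in DMSO the interval of -0.29 to 0.82 included 0. ID2 had the widest span of the 10 genes, 2.99 on the log2(FPKM + 0.1) scale.

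ID3 (ENSG00000117318; chromosome 1, 23557918 to 23559794, minus strand) had 884 counts in DMSO, 3339 in JQ1, 1219 in DMSO + PHA and 3383 in JQ1 + PHA, or 17.0, 61.3, 22.4 and 65.7 FPKM. JQ1 went with a 3.61-fold higher level without PHA, 1.85 (1.75 to 1.96), and 2.93-fold with PHA, 1.55 (1.46 to 1.65). PHA differences were smaller, 1.32-fold in DMSO, 0.40 (0.27 to 0.52), and 1.07-fold in JQ1, 0.10 (0.03 to 0.17). By FPKM, ID3 was 27.8 times ID2 in DMSO and 11.9 times in JQ1 + PHA, so ID3 was the more abundant Id transcript in both.

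PHA gave fewer large ratios than JQ1 in these 10 genes, as it did over all genes. In DMSO + PHA against DMSO, KLF2 and BACH2 were past 2-fold higher, 2 of 10 genes against 2.1% of all genes, and none was past 2-fold lower, against 1.19%. By counting interval 6 lay above 0 and 2 below, against 24.7% and 25.1% of all genes. In JQ1 + PHA against JQ1, TCF7 was past 2-fold higher, 1 of 10 genes against 1.04% of all genes, and none was past 2-fold lower, against 1.03%. By counting interval 5 lay above 0 and 1 below, against 15.6% and 15.7%. These comparisons share libraries with the JQ1 comparisons.

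**Figure D3:**
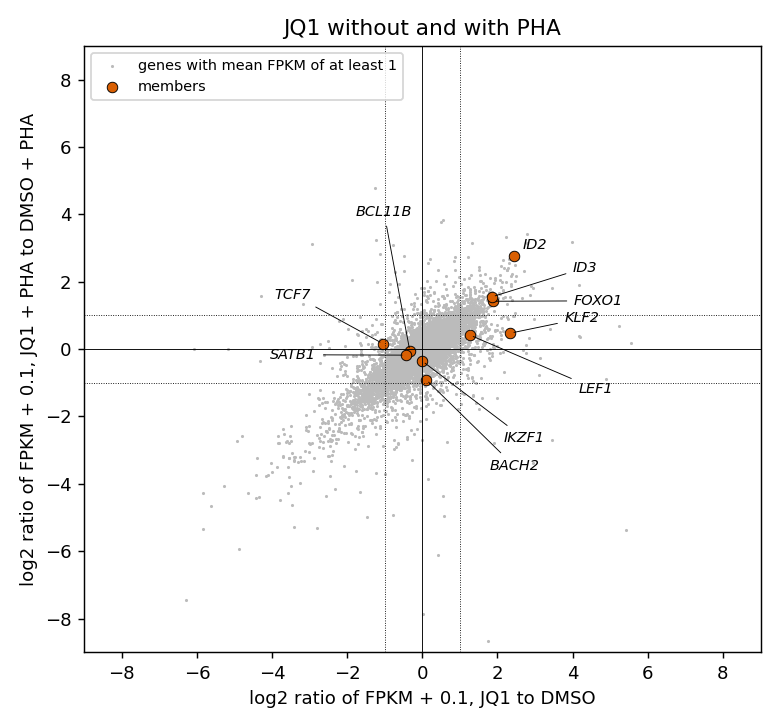
Log2 ratio of FPKM + 0.1 for JQ1 to DMSO (horizontal axis) against JQ1 + PHA to DMSO + PHA (vertical axis), with 1 grey point for each of the 11503 genes and filled circles for the 10 genes described. Dotted lines mark 2-fold; ID2, ID3 and FOXO1 lie in the upper right, KLF2 and LEF1 to the right only, TCF7 on the left and BACH2 below 0 on the vertical axis.

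The size of the JQ1 ratio differed with PHA. The log2 ratio of JQ1 with PHA minus that without PHA had a counting interval that excluded 0 in 9 of 10 genes, against 42.1% of 11428 genes. It was above 0 in 3 genes, against 20.6% of all genes, and below 0 in 6, against 21.5%. The interval is from all 4 libraries, 1 for each condition, and a difference between cultures enters it in full. Such intervals are narrower for genes with more counts, and the shares over all genes are not matched for counts. For TCF7 the difference was 1.21 (1.14 to 1.27), with opposite signs of the ratios. It was 0.26 (0.17 to 0.36) for BCL11B and 0.27 (0.16 to 0.37) for SATB1, whose ratios were closer to 0 with PHA. For KLF2 it was -2.19 (-3.13 to -1.25), the largest in size of the 10. For BACH2 it was -1.03 (-1.26 to -0.80). For LEF1 it was -0.85 (-0.90 to -0.81). FOXO1 with -0.49 (-0.93 to -0.05), IKZF1 with -0.35 (-0.42 to -0.28) and ID3 with -0.30 (-0.44 to -0.16) had smaller differences. For ID2 it was 0.30 (-0.26 to 0.87), so a difference was not detectable at its depth.

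Profiles over the 4 libraries were compared by the Euclidean distance of log2(FPKM + 0.1) after centring, as a description over 4 points that share their libraries. FOXO1 and ID3 were the most alike of the 10 genes, with a distance of 0.167, followed by BCL11B and SATB1 with 0.258. Among all 11503 genes the nearest to KLF2 was TERF2IP, a telomere-binding protein, at 0.0784, with 11.9 FPKM in DMSO, 57.8 in JQ1, 37.5 in DMSO + PHA and 52.1 in JQ1 + PHA. FAM53C at 0.187 and AP000295.9 at 0.260 came next. KLF2 had 14 counts in DMSO, and the interval of its JQ1 log2 ratio, 1.88 to 3.62, is wider than these distances. Which gene is nearest to KLF2 is thus not resolved. Nearest to ID3 were UBE2Q2P2 at 0.111, the antiproliferative gene BTG1 at 0.113 and SMIM14 at 0.116. Nearest to ID2 were the histone gene HIST1H2AG at 0.357, BZRAP1 at 0.365 and BMF, a BH3-only cell death gene, at 0.378. The distances of ID2 were larger than those of KLF2 and ID3, so by this measure its matches were less close. The measure leaves out counting error, and KLF2 and ID2 had few counts in DMSO.

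Other genes overlap some of the 10 by their deposited coordinates, and whether the counting used strand is not given in the sources used here. SKP1 overlaps TCF7 on the opposite strand by 2931 bases, and its counts were 3861 in DMSO, 6434 in JQ1, 4048 in DMSO + PHA and 5997 in JQ1 + PHA. SKP1 was thus higher with JQ1, with log2 ratios of 0.67 without PHA and 0.65 with PHA, and did not share the TCF7 pattern. LEF1-AS1 overlaps LEF1 on the opposite strand by 1432 bases and had 86, 179, 301 and 202 counts in the same order, few beside those of LEF1. SATB1-AS1 overlaps SATB1 by 565 bases, with 271, 386, 274 and 342 counts. ID2-AS1 overlaps ID2 by 3019 bases, with 3, 12, 6 and 17 counts, also few beside ID2. RP11-158G18.1 in SATB1 and AL109767.1 in BCL11B had at most 2 counts in a library. The 3 genes that overlap BACH2, among them RN7SKP110, and RLIMP1 in FOXO1 had 0. IKZF1, KLF2 and ID3 had no overlapping gene.

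Lists of relatives, partners and targets of the 10 genes held 82 genes, of which 62 had a mean of at least 1 FPKM. In JQ1 against DMSO, 10 of the 62 (16.1%) were past 2-fold higher, against 5.22% of all genes, and 7 (11.3%) lower, against 8.65%. With PHA 7 (11.3%) were higher, against 3.69%, and 5 (8.06%) lower, against 8%, so the shares of lower genes were near those of all genes. With PHA against no PHA in DMSO, 5 (8.06%) were higher, against 2.1%, and 1 (1.61%) lower, against 1.19%. In JQ1, 2 (3.23%) were higher, against 1.04%, and 0 lower, against 1.03%. These lists too were written with earlier results known.

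Among HMG-box relatives and TCF cofactors, 9 genes were measured, and in JQ1 against DMSO 1 was past 2-fold higher and 1 lower. The corepressor TLE4 was the higher one, with 1.98 FPKM in DMSO, 5.51 in JQ1, 3.03 in DMSO + PHA and 5.40 in JQ1 + PHA. The lower one was TLE2, named after its values were seen. In the BCL11, SATB and NuRD list, 0 of 8 genes passed 2-fold in any comparison, and BCL11A had 3.30, 2.04, 2.11 and 1.73 FPKM in the same order. In the Ikaros family 2 genes were measured. IKZF5 had 6.90 FPKM in DMSO, 0.964 in JQ1, 5.86 in DMSO + PHA and 6.50 in JQ1 + PHA, low in the JQ1 library alone, as TCF7 was. IKZF2 (Helios), named after its values were seen, was lowest in DMSO, with 17.4, 36.6, 41.3 and 38.8 FPKM.

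Of 3 measured BACH and small MAF genes, MAFG, a small MAF partner of BACH proteins, was past 2-fold lower with JQ1 in both settings, with 6.87 FPKM in DMSO, 2.12 in JQ1, 3.73 in DMSO + PHA and 1.46 in JQ1 + PHA. No other forkhead gene of the 3 measured passed 2-fold, and FOXO3 had 3.69, 5.62, 1.97 and 3.53 FPKM. Of 8 Krüppel-like factors none was past 2-fold higher, and 2 were lower in JQ1 than in DMSO. KLF11 was lower in both settings, with 1.65, 0.551, 1.53 and 0.695 FPKM.

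The Id gene ID1 followed ID2 and ID3. ID1 had 10.5 FPKM in DMSO, 50.2 in JQ1, 10.2 in DMSO + PHA and 51.8 in JQ1 + PHA, with JQ1 log2 ratios of 2.26 (2.11 to 2.41) and 2.35 (2.20 to 2.50). All 3 measured Id genes were past 2-fold higher with JQ1 in both settings. The E proteins they bind were not past 2-fold, with 4.44, 3.61, 3.99 and 3.60 FPKM for TCF3 and 16.6, 17.1, 16.3 and 15.1 for TCF12, both named after their values were seen.

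Of 7 measured T-lineage factors, MYB alone was past 2-fold in a JQ1 comparison, lower with PHA, with 25.3 FPKM in DMSO, 13.2 in JQ1, 31.4 in DMSO + PHA and 14.3 in JQ1 + PHA. Of 11 measured quiescence genes, 4 were past 2-fold higher with JQ1 in each setting, where 5.22% of all genes were without PHA and 3.69% with PHA. None was past 2-fold lower, where 8.65% and 8% of all genes were, a share that comes to about 1 gene of 11. SLFN5, a Schlafen family gene, had 3.81, 42.8, 12.6 and 44.1 FPKM in the same order. CDKN1B, the cyclin-dependent kinase inhibitor p27, had 13.7, 36.2, 14.8 and 34.7, and BTG1 had 2.91, 12.0, 4.18 and 12.2. The fourth was BTG2 without PHA, with 1.17 FPKM in DMSO and 2.71 in JQ1, and TSC1 with PHA, with 2.97 FPKM in DMSO + PHA and 9.86 in JQ1 + PHA, both named after their values were seen. TSC1 had 7.20 FPKM in DMSO and 3.81 in JQ1, the opposite order. SLFN11 and ZFP36L2 were lower with JQ1 in both settings, short of 2-fold, and were named after their values were seen. SLFN11 was 1.86-fold lower without PHA and 1.32-fold lower with PHA, and ZFP36L2 was 1.64-fold and 1.25-fold lower.

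Genes known as targets of these factors were split. Of 8 measured, 3 were past 2-fold higher and 2 lower in JQ1 than in DMSO, against 5.22% and 8.65% of all genes. With PHA 2 were higher and 2 lower, against 3.69% and 8%. AXIN2, a feedback target of β-catenin with TCF and LEF factors, had 0.977 FPKM in DMSO, 2.54 in JQ1, 1.06 in DMSO + PHA and 3.01 in JQ1 + PHA. SESN3, a sestrin gene activated by FOXO factors, had 6.50, 28.0, 7.29 and 26.6 FPKM, a pattern with both JQ1 libraries high, as for FOXO1. IL7R, the interleukin 7 receptor and a target of FOXO1, had 1.68, 0.622, 1.66 and 0.550 FPKM. IL7R was thus lower in the libraries in which FOXO1 was higher.

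**Figure D4:**
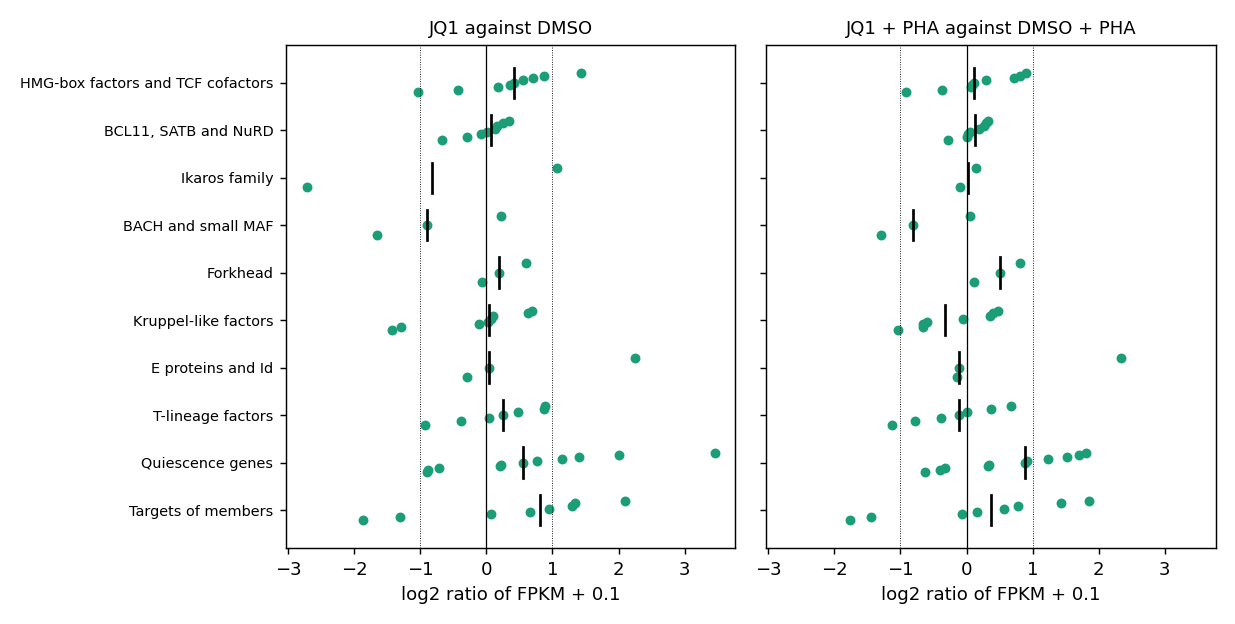
Log2 ratio of FPKM + 0.1 for each of the 62 measured genes of the pathway lists, 1 point per gene and 1 row per list, for JQ1 against DMSO (left) and JQ1 + PHA against DMSO + PHA (right). Black bars are list medians and dotted lines mark 2-fold; points past 2-fold lie on both sides in the target list, and on the higher side alone in the quiescence list.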

How the data were processed

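RNA-seq libraries of Jurkat cells, 1 for each of 4 conditions, were analysed. The authors deposited unnormalized read counts per gene and FPKM. The labels give the VAHTS Universal V6 kit, Hisat2 2.0.4 and GRCh38, and the methods describe a stranded mRNA kit. The submitters' processing notes also name TopHat2 2.0.9 and Cufflinks 2.1.1. The counting program, its use of strand and of reads with several alignments, and the annotation release are not given in the sources used here.

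The log2 ratio of FPKM + 0.1 was computed for 11503 genes with a mean of at least 1 FPKM. Log2 ratios of shares of counts have 95% exact (Clopper-Pearson) intervals, and the difference of a pair of such ratios has a delta-method interval. Total counts were 18620954 to 19685401, so a floor of 3 counts is 0.152 to 0.161 CPM, on the scale of a common library total. With 1 library each, no test between conditions was made. The 10 genes and the lists were chosen with earlier results of these data known.

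Named genes were the 10, list genes past 2-fold in the same direction in both JQ1 or both PHA comparisons (otherwise the list's largest JQ1 ratio), genes overlapping one of the 10, and the 3 nearest profiles of the 3 genes with the widest span. Other names were added after values were seen. Alternatives were the pseudocount, the minimum FPKM, the fold, and scaling by edgeR 4.0.16 TMM factors, DESeq2 1.42.0 size factors or the median gene. Python 3.11.15 with pandas 2.3.3 and scipy 1.17.1, and R 4.3.3, were used, and the steps were tested on simulated data. Promoter sequences are from RefSeq (GRCh38.p14), strands and transcript lengths from GENCODE release 44. Authors' comparisons were not used. Some results are not reported here.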

Additional observations from a re-analysis of the deposited data

Results flagged for a closer look

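Among the 10 genes, the measured list genes, the overlapping genes and the nearest profiles, some had ratios with counting intervals on opposite sides of 0 in the 2 settings of 1 contrast. With 1 library per condition, the difference between settings was not tested. The log2 ratio of shares of counts for JQ1 without and with PHA was -1.05 and 0.16 for TCF7. For IKZF5 it was -2.84 and 0.15. For TSC1 it was -0.92 and 1.73. For IKZF2 it was 1.08 and -0.093, for ZFP36L1 (an RNA-decay factor of the quiescence list) 0.23 and -0.66, and for LEF1-AS1 0.99 and -0.50. ETS1, a T-lineage factor, had 0.48 and -0.11, and CBFB, the partner of RUNX proteins, had 0.25 and -0.40.

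The log2 ratio for PHA without and with JQ1 was -0.24 and 2.75 for IKZF5. It was -1.28 and 1.37 for TSC1. It was 1.66 and -0.15 for TERF2IP, and 0.51 and -0.57 for the target CITED2. RUNX1 had 0.45 and -0.044, KLF13 had 0.10 and -0.63, and SESN3 had 0.17 and -0.075. The NuRD genes had the smallest ratios, -0.15 and 0.15 for HDAC2 and 0.065 and -0.070 for CHD4. The JQ1 library was the lowest of the 4 for TCF7 and IKZF5, and these ratios share it. Genes named here for the first time were picked by this rule after their values were seen.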

How the results depend on the processing

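With a mean FPKM of at least 5, genes past 2-fold higher numbered 2 in place of 5 in JQ1 against DMSO, 1 in place of 3 in JQ1 + PHA against DMSO + PHA, and 0 in place of 2 in DMSO + PHA against DMSO, since low genes were left out. With a pseudocount of 1, those lower in JQ1 than in DMSO numbered 0 in place of 1 (TCF7, at -0.97), and those higher in DMSO + PHA than in DMSO numbered 1 in place of 2 (KLF2, at 0.77, was lost). FOXO1 with PHA was then at 0.97. DESeq2 size factors also gave 0 lower in JQ1, with TCF7 at -0.998. At 1.5-fold, 1 gene was lower in JQ1 + PHA than in DMSO + PHA (BACH2), and 2 were higher in JQ1 + PHA than in JQ1 (TCF7 and BACH2). Of the 40 ratios of single genes, 11 moved by more than their counting error with a pseudocount of 1, 3 with TMM scaling, 4 with DESeq2 size factors, and 0 with a pseudocount of 0.01 or centring. No called ratio reversed. The JQ1 ratio of IKZF1 without PHA, not detectable, went from -0.00 to 0.04 at most. Differences of JQ1 ratios with PHA past counting error numbered 9 under TMM and DESeq2 scaling, added after the data had been seen. Scaling moved the median of all genes by at most 0.06 on the log2 scale. No paired analysis was possible because each condition had 1 library. Leaving out a library would remove its condition. A fit that takes the PHA settings as repeats of the JQ1 contrast was not run. Low counts limit KLF2, ID2 and FOXO1 in DMSO.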
